A study of Mus musculus with 6 samples.

Results

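Bmi1 and its paralogues Pcgf1, Pcgf2, Pcgf3, Pcgf5 and Pcgf6 encode the Polycomb group RING finger proteins of the mouse. Their probes were taken by the gene name given in the array files, which yielded 11 of the 55681 non-control probes and 6 of the 34797 gene names on the array. RNA of hematopoietic stem cells (HSCs) and of multipotent progenitors (MPPs) was compared between Bmi1 KO and wild-type (WT) animals on 6 dual-colour Agilent arrays. The 4 groups were KO HSCs, WT HSCs, KO MPPs and WT MPPs, each with 3 samples. All groups were C57BL6 mice aged 2 to 3 months, and all cells were sorted by FACS. Each array set 1 KO sample, in red (Cy5), against 1 WT sample of the same population, in green (Cy3), and no array had the dyes exchanged. A dye effect on a probe therefore cannot be told apart from genotype in a ratio of KO over WT. It cancels between the populations only where it is the same on HSC and MPP arrays, which was not tested. The labels give neither the KO allele, nor the sort markers, nor whether animals were pooled. Replicates are called biological, and p-values measure the spread between these samples. That spread was pooled over the HSC and MPP arrays.

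Polycomb repressive complex 1 (PRC1) attaches ubiquitin to a histone and keeps developmental genes silent. Each such complex holds 1 Polycomb group RING finger protein beside the catalytic RING protein, Ring1 or Rnf2, and the identity of that protein sets which other subunits join. Bmi1 and Pcgf2 belong to the canonical complexes with chromobox and Polyhomeotic subunits, whereas Pcgf1, Pcgf3, Pcgf5 and Pcgf6 belong to variant complexes that carry Rybp or Yaf2. In blood formation Bmi1 is known for the self-renewal of stem cells and for silencing the Cdkn2a locus.

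The arrays had similar shares of spots well above background, 72.5% to 82.2% in green and 78.8% to 83.9% in red. They differed in brightness. The median raw signal ran from 123.7 (MPP 2) to 205.7 (MPP 1) in green and from 378.9 (HSC 2) to 581.4 (HSC 1) in red. Across probes, the ratios of replicate arrays correlated at -0.07 to 0.08 in HSCs and at -0.01 to 0.20 in MPPs. The labelled populations were checked against their markers. Flt3, a receptor of multipotent progenitors, was 3.03 (log2) higher in WT MPPs than in WT HSCs (limma adjusted p = 0.0291) and 2.92 higher in KO MPPs than in KO HSCs (limma adjusted p = 0.0226). With the replicate number as a block or with the slide row in the fit, no probe on the array passed in either comparison, Flt3 included. Of the other MPP markers, which did not pass, Cd48 stood at 4.36 in WT and 4.09 in KO, Cd34 at 1.03 and 1.46, and Kit at -0.52 and -0.55. None of the 9 HSC markers passed, with 8 lower in WT MPPs than in WT HSCs (Slamf1 at -2.58) and Ly6a higher at 1.54. At least 8 of the 9 were well above background in each channel of every array, MPP arrays included. HSC 3 stood apart from the other HSC arrays in markers of other cells. The mean log2 level of 3 basophil and mast cell markers in its KO channel was 13.42, against 7.10 and 9.63 on HSC 1 and HSC 2. In its WT channel it was 9.98, against 6.31 and 6.61. For 7 granulocyte and monocyte markers it was 12.89 in WT, against 9.86 and 9.65. In KO it was 14.06, against 11.13 and 11.72. Erythroid markers were also highest there in WT (10.45 against 8.48 and 7.45) and in KO (9.57 against 8.54 and 9.08). Megakaryocyte markers were highest there in KO (12.75 against 10.62 and 10.05) but not in WT (9.92 against 9.89 and 10.02). Some of the results that rest on HSC 3 are also given without it.

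The family was measured by 2 probes for Bmi1, 1 for Pcgf1, 2 for Pcgf2, 2 for Pcgf3, 3 for Pcgf5 and 1 for Pcgf6, each of 60 bases and each printed as 1 spot. Positions are those in the array files, on mouse assembly mm9. Exon and UTR annotation of that build was not used here. The Bmi1 probes A_55_P2170335 and A_52_P39157 lie at chr2:18607531-18607590 and chr2:18607987-18608046 on the plus strand, at positions 2868 and 3324 of the transcript. Which part of the gene the KO allele lacks is not in the labels, so neither probe checks the genotype. Of the 132 channel measurements of the 11 probes, 130 were well above background. The exceptions were A_52_P39157 in WT and the Pcgf2 probe A_55_P1968153 in KO, both on HSC 3.

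The 2 probes with the smallest p in HSCs each join stretches of genome that lie apart, and their sequences are shown because the ratios of Pcgf1 and Pcgf2 rest on them. They are written 5′ to 3′ in lower case as in the array files, with no part marked. The Pcgf1 probe A_66_P121656 spans 469 bases at chr6:83030111-83030579, of which 409 are skipped. The Pcgf2 probe A_51_P317740 spans 174 bases at chr11:97553207-97553380, of which 114 are skipped.
Pcgf1: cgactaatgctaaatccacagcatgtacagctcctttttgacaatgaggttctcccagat
Pcgf2: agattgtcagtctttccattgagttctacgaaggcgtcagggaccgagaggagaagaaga
Their GC content was 43.3% and 48.3%. Each thus crosses at least 1 gap of the kind a splice junction leaves. The second Pcgf2 probe, A_55_P1968153, lies without a gap at chr11:97551160-97551219, further along the transcript at position 1669 against 944.

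In the comparison of KO with WT in HSCs, the family's most marked values were a low Pcgf1 ratio, a high Pcgf2 ratio on 1 of its 2 probes and a low Bmi1 ratio on 1 of its 2 probes. None of the 11 probes passed the limma test in HSCs (0 of 11, where 0% of the 44641 tested probes passed), and 2 had an unadjusted p under 0.05, against 7.34% of all probes. In MPPs 0 of 11 passed (0% of all probes) and 0 had an unadjusted p under 0.05 (4.81% of all). In the difference between the MPP and the HSC effect 0 of 11 passed (0% of all) and 2 had an unadjusted p under 0.05 (4.15% of all). The limma adjusted p of the 11 probes ran from 0.667 to 0.985 in HSCs, from 0.992 to 1 in MPPs and from 0.968 to 0.998 for the difference. The median log2 ratio of the 11 probes was -0.20 in HSCs and -0.12 in MPPs, beside -0.00 for all probes in either population.

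**Figure D1:**
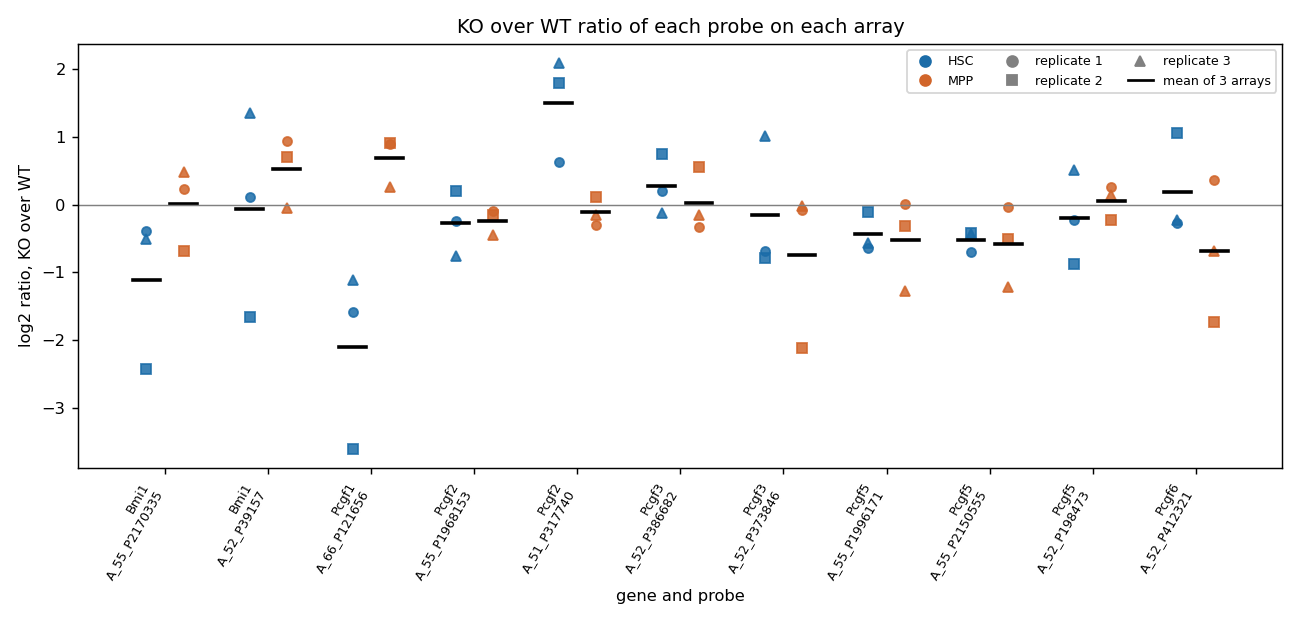
Log2 ratio of KO over WT (vertical axis) of the 11 probes of the family on each of the 6 arrays, with HSC and MPP arrays drawn apart and the mean of 3 arrays marked. Pcgf1 lies below 0 on 3 of 3 HSC arrays and above 0 on 3 of 3 MPP arrays, and the Pcgf2 probe A_51_P317740 lies above 0 on 3 of 3 HSC arrays.

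Bmi1, the gene the KO label names, had log2 ratios of -0.39, -2.42 and -0.50 on HSC 1, 2 and 3 by its brighter probe A_55_P2170335. On MPP 1, 2 and 3 the same probe gave 0.23, -0.69 and 0.48. The HSC arrays were thus all below 0 with HSC 2 far lowest, the MPP arrays lay on both sides of 0, and the populations overlapped. The HSC mean was -1.11 ± 1.14 (SD, n = 3) with a 95% interval of -2.24 to 0.02 (limma adjusted p = 0.676), and it was -0.45 without HSC 2. The MPP mean of 0.01 ± 0.62 (SD, n = 3) had an interval of -1.12 to 1.14. The KO signal of this probe was well above background on 6 of 6 arrays. Whether it reads a transcript of the KO allele cannot be told, since the deleted part is not known.

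The second Bmi1 probe, A_52_P39157, gave 0.11, -1.66 and 1.36 in HSCs, and 0.93, 0.70 and -0.05 in MPPs. Its raw WT signal was low, at 24.9 to 292.4, and was not well above background on HSC 3, the array with its highest ratio. Its means were -0.06 ± 1.52 (SD, n = 3) in HSCs, with the sign turned under other background corrections and under centring, and 0.53 ± 0.52 (SD, n = 3) in MPPs. The 2 probes shared a sign on 2 of 6 arrays, and on HSC 2 both were at their lowest. They differed by a median of 0.73 per array.

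Pcgf1, the subunit of the variant complex with Bcor and Kdm2b that binds unmethylated CpG islands, had log2 ratios of -1.59, -3.60 and -1.11 on HSC 1, 2 and 3. On MPP 1, 2 and 3 it had 0.90, 0.90 and 0.26. All HSC arrays were below 0 and all MPP arrays above it, so the populations did not overlap. The HSC mean was -2.10 ± 1.32 (SD, n = 3), a 4.28-fold lower KO signal, with a limma SE of 0.49 and a 95% interval of -3.28 to -0.91. The SE and interval use a spread pooled with the MPP arrays, whose SD was 0.37. They do not describe the HSC arrays alone. This HSC mean ranked 283 of 44641 probes by p (limma adjusted p = 0.667). Without HSC 2 it was -1.35 and without HSC 3 it was -2.59. The MPP mean was 0.69 ± 0.37 (SD, n = 3; limma adjusted p = 0.994). The effect in MPPs minus that in HSCs was 2.79 (SE 0.69, interval 1.11 to 4.46), ranking 184 by p (limma adjusted p = 0.968). By slide positions inferred from the naming of the arrays, the HSC arrays and MPP 1 lay in one row. MPP 2 and MPP 3 lay in the other. With row in the fit, which sets MPP 1 against the HSC arrays, the difference was 3.00 for Pcgf1. Ratios of HSC and MPP arrays did not overlap for 2 of the 11 probes, Pcgf1 and the Pcgf2 junction probe, against 8.42% of all probes. Every HSC array lay on one side of 0 and every MPP array on the other for 1 of 11 probes, Pcgf1, against 2.07% of all.

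Markers of other cells also differed between the populations. The 6 B lineage markers had a mean log2 level of 11.54, 13.66 and 14.10 in the KO channel of MPP 1, 2 and 3, the arrays with positive Pcgf1 ratios. In the KO channel of the HSC arrays that mean was 8.23 to 9.37. In the WT channel, the other dye, it was 7.43 to 8.08 in HSCs and 8.08 to 8.81 in MPPs. Levels of different dyes are not compared. The median log2 ratio of KO over WT of these markers was -0.04, -0.20 and -0.12 on HSC 1, 2 and 3. On MPP 1, 2 and 3 it was 2.43, 4.43 and 4.17. In KO MPPs and WT MPPs 6 of 6 of these markers were well above background on each array, and in WT HSCs 4 to 6 of them were. Among the MPP arrays these markers were highest in KO on MPP 3, where the Pcgf1 ratio was lowest at 0.26. The part of these markers in the Pcgf1 ratio was not tested. In bulk RNA, fewer cells of a type and less RNA per cell cannot be told apart.

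Pcgf2, also called Mel18, is the closest paralogue of Bmi1 and can occupy the same position in canonical complexes. Its junction probe A_51_P317740 had log2 ratios of 0.63, 1.79 and 2.09 on HSC 1, 2 and 3. On MPP 1, 2 and 3 it had -0.30, 0.11 and -0.16. The HSC arrays were all above 0 and above every MPP array. The HSC mean of 1.50 ± 0.77 (SD, n = 3) corresponds to a 2.83-fold higher KO signal, with a limma SE of 0.33 and a 95% interval of 0.70 to 2.30. Here too the SE and interval use the pooled spread, and the MPP SD was 0.21. This HSC mean ranked 203 by p (limma adjusted p = 0.667), and without HSC 3 it was 1.21. In MPPs the mean was -0.12 ± 0.21 (SD, n = 3), and 0.17 when arrays were centred on the median in place of loess. The difference between the populations was -1.62 (SE 0.47, interval -2.75 to -0.48, limma adjusted p = 0.968), and -1.81 with row in the fit.

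The second Pcgf2 probe did not follow the junction probe, but it was dim. Its raw WT signal was 40.5 to 73.4, against 610.5 to 929.9 for the junction probe. A_55_P1968153 gave -0.24, 0.20 and -0.76 in HSCs, and -0.10, -0.16 and -0.45 in MPPs. Its values lay below 0 on 5 of 6 arrays and the populations overlapped, with means of -0.27 ± 0.48 and -0.24 ± 0.19 (SD, n = 3 each). With Agilent's processed signals these means were -0.80 and -0.66. The 2 Pcgf2 probes shared a sign on 3 of 6 arrays, and their ratios differed by 0.21 to 2.85. On HSC 3, where they lay farthest apart, the KO signal of A_55_P1968153 was not well above background.

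**Figure D2:**
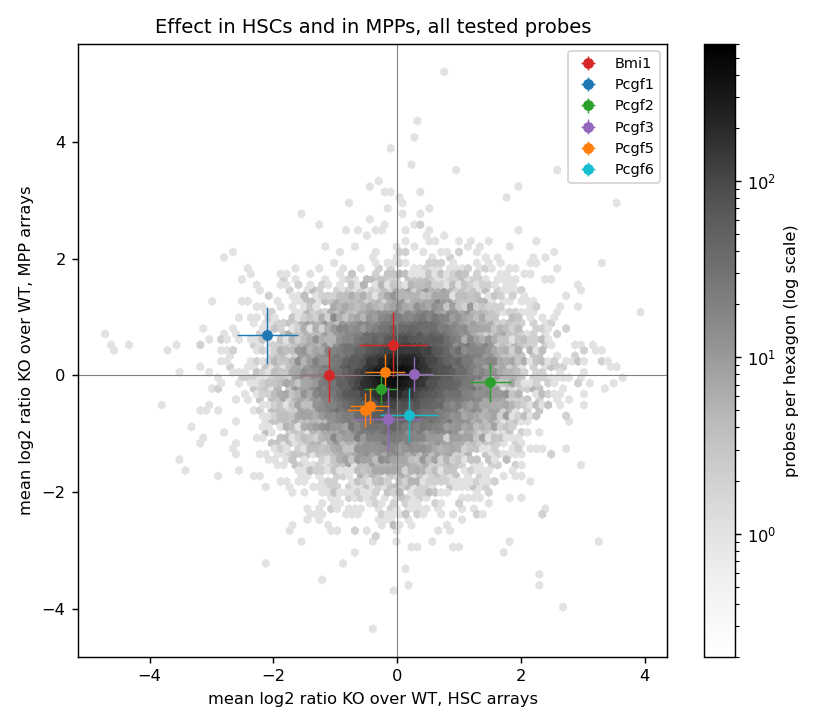
Mean log2 ratio of KO over WT in HSCs (horizontal axis) against MPPs (vertical axis) for the 44641 tested probes, as hexagons shaded by their number on a log scale, with the 11 probes of the family as points with limma SE. Pcgf1 lies at -2.10 in HSCs and 0.69 in MPPs and the Pcgf2 junction probe at 1.50 and -0.12, while the other probes lie nearer the centre.

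Pcgf3 and Pcgf5 encode the closely related subunits of variant complexes that contain casein kinase and Auts2 or Fbrs. The Pcgf3 probes A_52_P386682 and A_52_P373846 lie at chr5:108917527-108917586 and chr5:108931091-108931150. The first had ratios of 0.20, 0.75 and -0.12 in HSCs, and -0.33, 0.55 and -0.15 in MPPs. Its raw WT signal was low, at 42 to 117.2, against 106.2 to 641.6 for the second. The second had -0.68, -0.78 and 1.01 in HSCs, and -0.08, -2.12 and -0.03 in MPPs. Both probes spread over 0 in HSCs and overlapped between the populations, and they shared a sign on 2 of 6 arrays. The MPP mean of the second, -0.74 ± 1.19 (SD, n = 3), rests on MPP 2.

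The Pcgf5 probes A_55_P1996171 and A_55_P2150555 lie at chr19:36530623-36530682 and chr19:36530629-36530688 and share 54 of their 60 bases, so they are not separate evidence. A_55_P2150555 had ratios of -0.70, -0.41 and -0.43 in HSCs, and -0.03, -0.51 and -1.22 in MPPs. All 6 values were below 0, which held for 1 of the 11 probes and for 3.21% of all probes, and the populations overlapped. Averaged over both populations its effect was -0.55 (SE 0.20, limma adjusted p = 0.622), and -0.24 with median centring in place of loess or -0.28 with row in the fit. For this mean effect 0 of 11 probes of the family passed limma (0% of all) and 2 had an unadjusted p under 0.05 (7.9% of all), this one and the Pcgf2 junction probe at 0.69 (SE 0.23, limma adjusted p = 0.622), or 1.05 with median centring. The overlapping probe gave -0.64, -0.11 and -0.56 in HSCs, and 0.02, -0.31 and -1.27 in MPPs, differing from it by at most 0.30 on any array.

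The third Pcgf5 probe, A_52_P198473 at chr19:36535120-36535179, gave -0.23, -0.87 and 0.51 in HSCs, and 0.26, -0.22 and 0.14 in MPPs. Its values lay on both sides of 0 in either population, and it shared a sign with A_55_P2150555 on 3 of 6 arrays. Pcgf6 pairs with Mga, Max and L3mbtl2 in a variant complex that binds E-box and E2F sites, and its probe A_52_P412321 lies at chr19:47108539-47108598. It had ratios of -0.27, 1.06 and -0.22 in HSCs, and 0.37, -1.73 and -0.68 in MPPs. HSC 2 was high, MPP 2 low and the groups overlapped, with means of 0.19 ± 0.75 and -0.68 ± 1.05 (SD, n = 3 each).

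Counted over single arrays, 4 of the 11 probes lay below 0 on all 3 HSC arrays (13.6% of all probes), namely Bmi1 A_55_P2170335, Pcgf1 and the overlapping Pcgf5 pair. The Pcgf2 junction probe was the 1 of 11 above 0 on all 3 (13.2% of all). In MPPs 3 of 11 lay below 0 on all 3 arrays (14.7% of all) and 1 of 11, Pcgf1, above it (14.4% of all). With 3 arrays a two-sided sign flip cannot give a p below 0.25.

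The second question is how the family stood in MPPs against HSCs of the same genotype, which compares arrays within 1 dye. Levels here are log2 signals after background correction, and the 6 arrays were brought to 1 distribution per dye. For the family they are read within a probe, never between probes or dyes. Marker levels are means over several probes and are read within 1 dye. In WT animals 0 of 11 probes passed limma, against 0.287% of all probes, and 1 had an unadjusted p under 0.05 (14.2% of all). The levels of the 2 populations did not overlap for 2 of 11 probes (21.1% of all), Pcgf6 and Pcgf5 A_55_P2150555, both higher in MPPs. The median difference of the 11 probes was 0.04, beside -0.08 for all probes, and their limma adjusted p ran from 0.296 to 0.958.

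Pcgf6 stood at 7.31, 6.66 and 8.12 in WT HSCs and at 8.22, 9.39 and 8.81 in WT MPPs. The highest HSC array lay just below the lowest MPP array. The difference was 1.45 (SE 0.48, 95% interval 0.28 to 2.61, limma adjusted p = 0.296), and 0.86 with row in the fit. Pcgf5 A_55_P2150555 stood at 7.58, 7.96 and 8.23 in WT HSCs and at 8.24, 8.71 and 8.97 in WT MPPs, a difference of 0.72 (limma adjusted p = 0.365). Its overlapping partner gave 0.74 (limma adjusted p = 0.356), while the third Pcgf5 probe gave -0.14 and turned its sign when single arrays were left out.

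Bmi1 A_55_P2170335 stood at 9.12, 9.27 and 10.39 in WT HSCs and at 9.58, 10.65 and 9.90 in WT MPPs, so the populations overlapped. Pcgf1 stood at 8.05, 9.79 and 10.72 in WT HSCs and at 8.52, 9.80 and 8.82 in WT MPPs, again with overlap. Among the WT HSC arrays both probes were highest on HSC 3. That array also had the highest granulocyte and monocyte and the highest basophil and mast cell marker levels of those arrays. The second Bmi1 probe was lowest there, at 6.04. On MPP 3 the granulocyte and monocyte marker level in WT was 13.08, with Pcgf1 at 8.82. The Pcgf1 difference was -0.47 and became 0.13 without HSC 3. The part of those markers in these levels was not tested.

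The Pcgf2 junction probe hardly varied in WT cells, at 9.83, 9.62 and 9.58 in HSCs and 9.81, 9.63 and 9.70 in MPPs. Its difference was 0.04 with an interval of -0.50 to 0.57. The second Pcgf2 probe ran from 6.55 to 6.78 in WT HSCs and from 6.42 to 6.68 in WT MPPs. Of Pcgf3, A_52_P386682 ran from 6.76 to 7.04 and from 6.55 to 6.93, and A_52_P373846 from 7.07 to 8.05 and from 7.96 to 9.36. The second Bmi1 probe ran from 6.04 to 8.57 and from 6.46 to 7.65. All of these ranges overlapped between WT HSCs and WT MPPs.

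**Figure D3:**
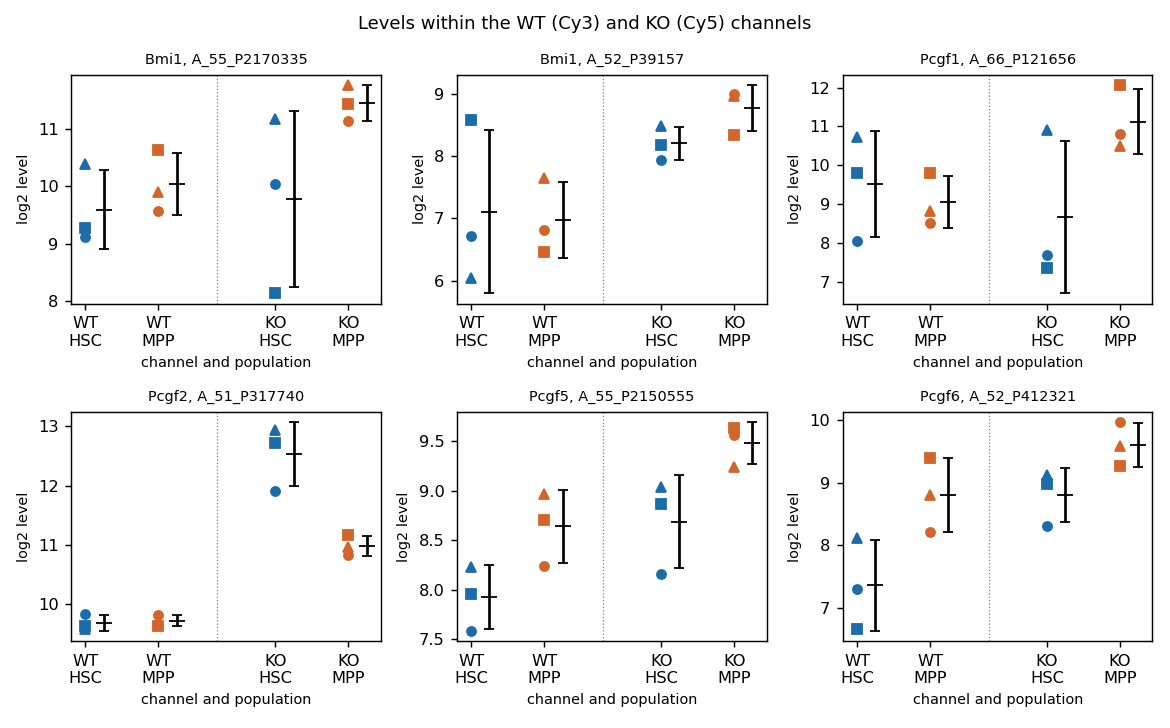
Log2 level (vertical axis, 1 scale per panel) of 6 probes on each array, quantile-normalized within each dye, with circles, squares and triangles for replicates 1, 2 and 3, bars for the mean ± SD, and a dotted line between the WT (Cy3) and KO (Cy5) channels. The KO levels of the Pcgf2 junction probe run from 11.91 to 12.95 in HSCs and from 10.82 to 11.16 in MPPs, while its 6 WT levels lie between 9.58 and 9.83.

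In KO animals 0 of 11 probes passed limma between MPPs and HSCs, against 0.352% of all probes. Of the 11, 4 had an unadjusted p under 0.05 (11.6% of all). These 4 include both probes of the overlapping Pcgf5 pair, which are not separate evidence. Levels did not overlap for 4 of 11 probes (19% of all): the Pcgf2 junction probe, lower in MPPs, and Pcgf6 and the overlapping Pcgf5 pair, higher in MPPs. The median difference was 0.66, beside -0.08 for all probes, and the limma adjusted p ran from 0.169 to 0.82.

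The Pcgf2 junction probe stood at 11.91, 12.72 and 12.95 in KO HSCs and at 10.82, 11.16 and 10.96 in KO MPPs. Every KO HSC array lay above every KO MPP array. The difference was -1.55 (SE 0.34, 95% interval -2.36 to -0.74, limma adjusted p = 0.169), and -1.70 with row in the fit. Without HSC 3 it was -1.34. The second Pcgf2 probe stood at 7.29, 8.10 and 6.77 in KO HSCs and at 7.22, 7.13 and 7.05 in KO MPPs, with overlap.

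Pcgf1 stood at 7.70, 7.36 and 10.91 in KO HSCs and at 10.82, 12.07 and 10.49 in KO MPPs. HSC 1 and HSC 2 lay well below the MPP arrays and HSC 3 among them. The difference was 2.47 (SE 0.98, limma adjusted p = 0.413), and without HSC 3 it was 3.59 (limma adjusted p = 0.0815), the smallest adjusted p of any probe of the family under any setting tried. Bmi1 A_55_P2170335 stood at 10.04, 8.13 and 11.18 in KO HSCs and at 11.15, 11.45 and 11.78 in KO MPPs, where HSC 3 again reached the MPP levels. Its difference was 1.67 (SE 0.74, limma adjusted p = 0.449), with 2.37 without HSC 3 and 0.85 without HSC 2. HSC 3 was also the KO HSC array with the highest basophil and mast cell markers, with 3 of 3 well above background against 2 of 3 on HSC 1 and 3 of 3 on HSC 2. Its granulocyte and monocyte markers were likewise the highest among the KO HSC arrays, at 14.06. In KO MPPs the mean was 11.82 to 12.89 for the basophil and mast cell markers and 13.44 to 14.20 for the granulocyte and monocyte markers. The part of these markers in the Pcgf1 and Bmi1 levels was not tested.

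Pcgf6 stood at 8.31, 8.98 and 9.12 in KO HSCs and at 9.97, 9.26 and 9.59 in KO MPPs, a difference of 0.80 (SE 0.34, limma adjusted p = 0.43). Pcgf5 A_55_P2150555 stood at 8.15, 8.87 and 9.04 in KO HSCs and at 9.56, 9.64 and 9.24 in KO MPPs, also a difference of 0.80 (limma adjusted p = 0.419). For both of these probes the lowest KO MPP array lay above the highest KO HSC array, as it did in WT. The other Pcgf5 probes did not share this in both channels: A_55_P1996171 overlapped in WT and A_52_P198473 in WT and KO. The second Bmi1 probe gave 0.56 (limma adjusted p = 0.522), the Pcgf3 probes -0.36 and 0.66, and the third Pcgf5 probe 0.17. Without HSC 1, the Pcgf6 difference was 0.56 and that of Pcgf5 A_55_P2150555 was 0.53.

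Genes whose levels ran most like Bmi1 A_55_P2170335 were named by Pearson r over the 12 channel levels, each dye centred on its mean, among 34047 probes well above background in all 12 channels. These r are a description without a test, because the 12 levels come from 6 arrays and share their hybridizations. Clone, predicted-gene and accession names were left out, and 1 probe was taken per gene. The highest of the rest were Fam35a at 0.968, Tyms-ps at 0.951, Ankrd28 at 0.944, Tmem201 at 0.935 and Frmd8 at 0.931. Among the family's probes compared, Pcgf1 ran most like Bmi1 A_55_P2170335, with an r of 0.821, higher than 99.4% of those probes. The second Bmi1 probe and the second Pcgf2 probe were not compared, since neither was well above background in all 12 channels. The Pcgf2 junction probe had -0.573, while the Pcgf3 probes A_52_P386682 and A_52_P373846 differed in sign, at -0.724 and 0.494. Pcgf6 stood at 0.518 and the 3 Pcgf5 probes at 0.547, 0.509 and -0.12.

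The wider PRC1 machinery was read from 33 partner genes, taking the brightest probe of each. Of these, 31 were tested and 0 passed limma in any of the 6 comparisons, where 0% of all probes passed in each comparison of KO with WT, 0.287% between WT populations and 0.352% between KO populations. In HSCs 15 had a positive and 16 a negative mean ratio (49.7% of all probes were positive), 3 with an unadjusted p under 0.05 (7.34% of all), and the median was -0.01. In MPPs the counts were again 15 and 16 (49.6% of all probes positive), with 3 at an unadjusted p under 0.05 (4.81% of all) and a median of -0.01. With arrays centred on the median in place of loess, which put all probes at 0.24 in HSCs and 0.21 in MPPs, the partners' medians were 0.40 and 0.33. For the difference between the populations 12 were positive and 19 negative (50.2% of all probes positive), with 1 at an unadjusted p under 0.05 (4.15% of all).

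Fbrs, a partner of Pcgf3 and Pcgf5, had ratios of -0.31, -0.58 and -1.40 in HSCs, and -1.30, -2.21 and -2.40 in MPPs. All 6 arrays were below 0, and the populations overlapped, MPP 1 lying above HSC 3. Its means were -0.76 (SE 0.34) in HSCs and -1.97 (SE 0.34) in MPPs, with limma adjusted p of 0.676 and 0.992. L3mbtl2, a partner of Pcgf6, had 0.27, 1.51 and 1.60 in HSCs, and 0.88, 0.31 and 0.63 in MPPs, above 0 on 6 of 6 arrays. Its HSC mean was 1.13 (SE 0.33, limma adjusted p = 0.673). Cbx2, a chromobox subunit of the canonical complexes, had an HSC mean of -0.98 (SE 0.30, limma adjusted p = 0.673) and was below 0 on 3 of 3 HSC arrays, lowest on HSC 2, where its KO signal was not well above background.

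Phc1, a Polyhomeotic subunit of the canonical complexes, was below 0 on 6 of 6 arrays, with an MPP mean of -1.57 (SE 0.57, limma adjusted p = 0.992) that rests largely on MPP 2 at -3.26. A second Phc1 probe was below 0 on 3 of 6 arrays, with means of -0.17 in HSCs and -0.72 in MPPs. Scml2, a Polycomb protein with MBT repeats, had an HSC mean of -0.83 (SE 0.32). Auts2 and Phc2 had MPP means of 0.89 and 0.84 by their brightest probes. The other probes of Auts2 gave -0.23 and -0.09 in MPPs, and those of Phc2 gave 0.09 and -1.08.

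**Figure D4:**
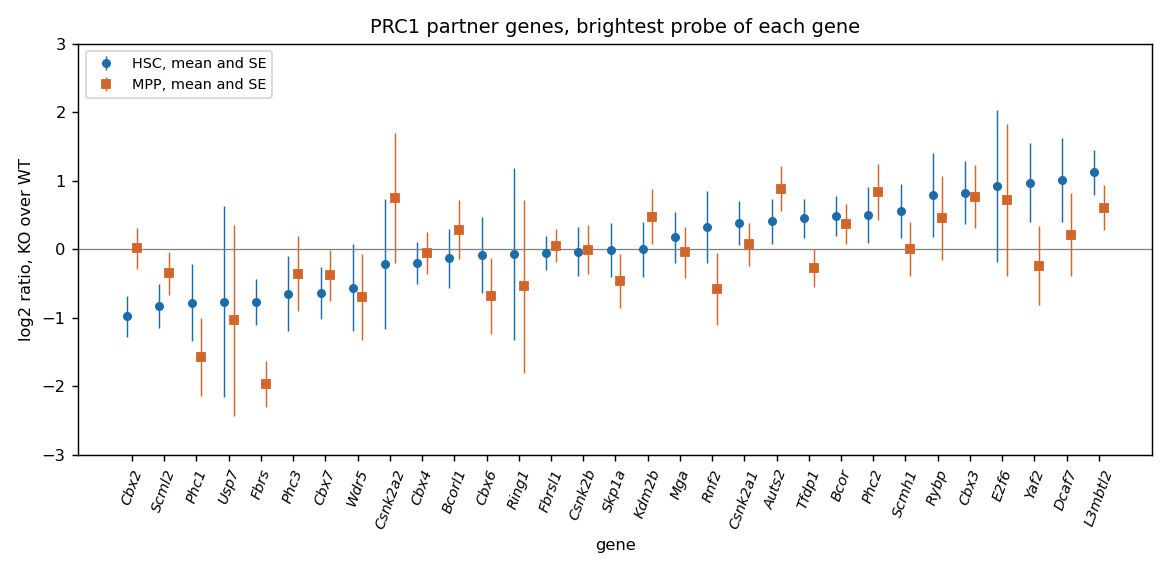
Mean log2 ratio of KO over WT (vertical axis) with limma SE for the 31 tested PRC1 partner genes, ordered by their HSC value, with HSC means as circles and MPP means as squares. The HSC means run from Cbx2 at -0.98 to L3mbtl2 at 1.13, and Fbrs has the lowest MPP mean at -1.97.

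Between populations, 22 of the 31 partners were higher in WT MPPs than in WT HSCs and 9 lower (44.1% of all probes were higher), with 5 at an unadjusted p under 0.05 (14.2% of all) and a median of 0.42 (all probes -0.08). In KO cells 18 were higher and 13 lower (43.4% of all probes higher), with 5 at an unadjusted p under 0.05 (11.6% of all) and a median of 0.39 (all probes -0.08). Tfdp1, the dimer partner of E2F6 in the Pcgf6 complex, was 1.19 (SE 0.31) higher in WT MPPs and 0.67 (SE 0.24) higher in KO MPPs, with limma adjusted p of 0.237 and 0.37. Cbx7, a chromobox subunit of Bmi1 complexes, was at -0.85 (SE 0.32) in WT MPPs against WT HSCs (limma adjusted p = 0.329).

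Genes known to be silenced with Bmi1 were read from 6 names, Cdkn2a, Cdkn2b, Hoxa9, Hoxc13, Ebf1 and Pax5, of which Hoxc13 was not tested. Of the 5 tested, 3 had a positive ratio in HSCs and 5 in MPPs, and 0 passed limma in either, with 0 and 2 at an unadjusted p under 0.05 (7.34% and 4.81% of all). The HSC signs of Cdkn2b and Ebf1 rest on channels not well above background: WT on 3 of 3 HSC arrays and KO on HSC 2 and HSC 3 for Cdkn2b, and WT on HSC 1 and HSC 3 for Ebf1. Cdkn2a, which encodes inhibitors of the cell cycle, had 0.31, -0.32 and -2.82 in HSCs, and 1.74, 0.61 and 1.19 in MPPs. WT on HSC 1 and KO on HSC 2 were not well above background, so the first pair of these ratios was measured against background. Its lowest HSC value was on HSC 3, where its WT level was 9.21 against 6.49 on HSC 2. Ebf1 and Pax5, transcription factors of B cells that the B lineage marker list also holds, had MPP means of 5.20 (SE 0.65) and 3.91 (SE 0.47), both with a limma adjusted p of 0.865. The second Pax5 probe had an MPP mean of 1.90. Between KO MPPs and KO HSCs, Pax5 was the 1 gene of the 5 that passed, higher by 4.41 (SE 0.52, limma adjusted p = 0.0383), against 0.352% of all probes. None of the 5 passed with no filter on dim probes (smallest limma adjusted p = 0.0627), with the replicate number as a block (0.0689) or with row in the fit (0.306). None passed in 5 of 6 fits that left out 1 array (0.0578 to 0.143), the exception being the fit without MPP 1.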

How the data were processed

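The array files held deposited spot and local background intensity values in both channels, read with Feature Extraction 10.7.3.1 per the file headers, while version 8.5.1.1 stands in the submitters' processing notes. A log10 ratio of red over green was deposited in those files, and the authors' series matrix repeats it for all 62976 spots of each array. Marks of 0 or 1 for spots well above background, saturated or outlying were also deposited. Per the labels' protocols, 10 µg of Trizol-extracted total RNA was labelled by reverse transcription.

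Spot intensities were background-corrected with normexp (offset 50) in limma 3.58.1 (R 4.3.3, with the packages jsonlite 2.0.0 and data.table, the latter version 1.17.8). Log2 ratios were loess-normalized within arrays. Levels were quantile-normalized within each dye. Probes well above background on all 3 arrays of at least 1 of 4 groups, with a value on 6 arrays, were kept, which left 44641. Each was tested with limma (lmFit, eBayes, 1 mean per population) and adjusted by Benjamini-Hochberg over all of them at 0.05. For each probe the HSC and MPP arrays shared a common estimate of the spread. The script was tested on simulated data with independent noise, which held no dye, row or replicate effect and so cannot speak to those. By positions inferred only from the naming of the arrays, these lay in 2 slide rows, with MPP 2 and MPP 3 in a row of their own.

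All probes of the family are named, and up to 4 genes per list and comparison by smallest p. Also named are the 5 genes most like Bmi1 A_55_P2170335, leaving out clone, predicted-gene and accession names. Members and lists were chosen with earlier results of these data known. Alternatives covered background correction, normalization, the filter, the row, the replicate number and each array left out. Samples sharing a replicate number did not deviate together in every pair (r from 0.04 to 0.16 in WT levels and from -0.01 to 0.09 in KO levels), so the numbers were not taken as pairs.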

Additional observations from a re-analysis of the deposited data

Results flagged for a closer look

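The Pcgf1 probe A_66_P121656 had a KO/WT ratio below 0 on every HSC array and above 0 on every MPP array, and its MPP effect minus its HSC effect was 2.79 on the log2 scale. The limma test of that difference gave an adjusted p of 0.968. A split of this kind was seen in 2.07% of all tested probes.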

How the results depend on the processing

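Under 14 alternatives, 722 of 772 values of the family kept their sign, 50 reversed (27 of them when an array was left out) and 0 passed, with a smallest limma adjusted p of 0.0815 for Pcgf1 between KO MPPs and KO HSCs. Many of the 772 values could not move, so the share that kept its sign is no measure of stability. HSC ratios stay the same when an MPP array is left out, and MPP ratios when an HSC array is. The block and the filter change no estimate, and the row changes no HSC ratio. Mean KO effects were counted only for the 2 probes with an unadjusted p under 0.05. No cause of a reversal was tested. Over all alternatives the HSC value ran from -2.76 to -1.35 for Pcgf1, from 1.21 to 1.94 for Pcgf2 A_51_P317740 and from -1.46 to -0.45 for Bmi1 A_55_P2170335. Precision is limited by 3 arrays per group and by 1 spot per probe.

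With Agilent's processed signals, Bmi1 A_52_P39157 stood at 0.93 in HSCs, -0.0229 for the difference between the effects and 0.73 in WT MPPs against WT HSCs. The difference between the effects was 0.0141 for Pcgf5 A_55_P1996171 and 0.0773 for A_55_P2150555, and the WT value of Pcgf2 A_51_P317740 was -0.0048. Without background correction, Bmi1 A_52_P39157 stood at 0.143 in HSCs and 0.0439 in WT, and Pcgf2 A_55_P1968153 at -0.0068 for the difference. Median centring moved the median of all probes to 0.24 in HSCs and 0.21 in MPPs and the number passing for the mean KO effect from 0 to 157, all higher in KO. In HSCs it put Bmi1 A_52_P39157 at 0.085, Pcgf3 A_52_P373846 at 0.073 and Pcgf5 A_52_P198473 at 0.0609, and in MPPs Pcgf2 A_51_P317740 at 0.17. The difference for Pcgf2 A_55_P1968153 was then -0.0351.

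With the slide row as a covariate, MPP values are those of MPP 1: -0.33 for Pcgf3 A_52_P386682, 0.0162 for Pcgf5 A_55_P1996171 and 0.37 for Pcgf6. The difference was then 0.068 for Pcgf3 A_52_P373846, 0.46 for Pcgf5 A_55_P1996171, 0.48 for A_55_P2150555 and 0.18 for Pcgf6. The WT value was -0.015 for Bmi1 A_55_P2170335 and 0.0661 for Pcgf3 A_52_P386682.

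Of all probes, 128 passed between WT MPPs and WT HSCs and 157 between KO MPPs and KO HSCs. These counts were 63 and 85 with no filter, 0 and 0 with row, and ran from 0 to 105 and from 36 to 125 with an array left out. With the replicate number as a block both were 0, at 6154 and 4917 probes with an unadjusted p under 0.05. In the 4 comparisons of KO with WT, 0 probes passed with or without the block. In WT levels 6 of 6 arrays correlated best with the array of their own number, in KO levels 3 of 6 and in ratios 0 of 6, a hint from the data only. The number of passing Bmi1 targets, 1 (Pax5), was 0 with no filter (smallest adjusted p = 0.0627), with the block (0.0689) and with row (0.306), and 0 to 1 with an array left out (0 in 5 of 6 fits).

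Values that reversed when an array was left out ran as follows. In HSCs, Bmi1 A_52_P39157 ran from -0.78 to 0.73, Pcgf3 A_52_P373846 from -0.73 to 0.16, Pcgf5 A_52_P198473 from -0.55 to 0.14 and Pcgf6 from -0.25 to 0.42. In MPPs, Bmi1 A_55_P2170335 ran from -0.23 to 0.35, Pcgf3 A_52_P386682 from -0.24 to 0.20 and Pcgf5 A_52_P198473 from -0.0435 to 0.20. For the difference, Bmi1 A_52_P39157 ran from -0.21 to 1.30, Pcgf2 A_55_P1968153 from -0.21 to 0.26, Pcgf3 A_52_P373846 from -0.95 to 0.10, Pcgf5 A_52_P198473 from -0.0858 to 0.60, A_55_P1996171 from -0.35 to 0.29 and A_55_P2150555 from -0.35 to 0.24. In WT, Bmi1 A_52_P39157 ran from -0.67 to 0.60, Pcgf1 from -1.20 to 0.13, Pcgf2 A_51_P317740 from -0.0135 to 0.11, Pcgf3 A_52_P386682 from -0.14 to 0.0469 and Pcgf5 A_52_P198473 from -0.44 to 0.27. In KO, Pcgf2 A_55_P1968153 ran from -0.56 to 0.11.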
